A study of Mus musculus with 11 samples.

Results

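The open chromatin around 9 genes of the proneural basic helix-loop-helix (bHLH) and Hes families is described here in midbrain dopaminergic (DA) and hindbrain serotonergic (5-HT) neurons of the mouse embryo. The genes were chosen by name, as the proneural genes Neurog1, Neurog2 and Atoh1, the neuronal differentiation genes Neurod1, Neurod2, Neurod4 and Neurod6, and the Notch effectors Hes1 and Hes5. They are 9 of 22367 protein-coding genes of the annotation, and their bodies extended by 20 kb on each side hold 53 of the 131942 peak positions that the authors deposited.

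Open chromatin was profiled by ATAC-seq, which cuts and tags DNA that is not packed away, in E14.5 embryos, with 3 DA and 2 5-HT libraries. DA neurons were GFP-positive cells sorted from ventral mesencephalons of TH-GFP embryos, whose GFP is driven by the Th promoter (C57BL/6J background). 5-HT neurons were YFP-positive cells sorted from rhombomeres r1 to r3 of embryos with a Cre transgene and a ROSA YFP reporter. Wild-type Swiss females were the mothers of the embryos, tissue of several embryos was pooled for each experiment, and the replicates came from separate sorting experiments. YFP in the hindbrain line therefore marks cells with a history of Cre activity, and GFP in the midbrain line marks cells in which the Th promoter is active.

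Proneural proteins bind DNA as dimers with E proteins and start the neuronal programme in dividing progenitors, and the Neurod proteins act later, as neurons differentiate. Hes proteins, which Notch signalling induces through RBPJ, repress proneural genes and keep progenitors undifferentiated. Neurog2 is needed for the formation of midbrain DA neurons, and Atoh1 marks the rhombic lip of the hindbrain.

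Each peak position carries a score in each library, and a score of 0 means that no peak was called there. The libraries differed in yield, with 52861, 93055 and 94351 peaks for DA and 38772 and 22879 peaks for 5-HT neurons, in the order of the replicate numbers, which holds for all values below. By the paper's account, both 5-HT libraries were also made from fewer sorted cells than the DA libraries. The number of reads is unknown, and so is the scale of the score. Scores were therefore also read as a percentile among the peaks of the same library and as a place counted from the top of the library's ranking, where place 1 is the highest score. A promoter reached from 1 kb upstream to 100 bp downstream of an annotated transcription start site (TSS), and a peak that overlapped no promoter was called distal. Of the 53 peak positions, 12 lay in promoters of the 9 genes, 2 in promoters of neighbouring genes and 39 were distal.

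Markers of the sorted cells were looked at in the same way. Among 9 dopaminergic markers, the promoter peak was in all 5 libraries for 4 genes and in the 3 DA libraries alone for Th, Lmx1a and Aldh1a1. Th had DA scores of 9.91, 10.6 and 8.45 and lacked a 5-HT peak, and Pitx3, the highest-scoring gene of the list, had scores of 11.0, 11.9 and 9.28 against 4.97 and 2.96. Serotonergic markers pointed in different directions. Among 7 serotonergic markers, the promoter of Fev was scored at 3.88 in 5-HT replicate 1 and in no other library, and that of Tph2, the highest-scoring gene of the list, was scored at 9.91, 7.59 and 11.1 in the DA libraries and 7.09 and 3.59 in the 5-HT libraries. Every DA score of Tph2 was thus above both 5-HT scores, as at 89.6% of the protein-coding promoters scored in all 5 libraries. By place, Tph2 stood at 5030, 17812 and 4538 in the DA rankings and at 4844 and 12362 in the 5-HT rankings. The groups overlapped by place. Slc6a4 had a promoter peak in the 3 DA libraries alone. Gata3 was scored at 6.98, 4.52 and 4.65 in the DA libraries and at 5.13 and 7.51 in the 5-HT libraries, and the groups overlapped. Gata2 was scored at 3.11 in DA replicate 2 and at 4.20 in 5-HT replicate 1. The scores summed over the dopaminergic list were 61.7, 66.5 and 58.3 in the DA libraries and 20.7 and 15.9 in the 5-HT libraries, and those over the serotonergic list 32.7, 35.1 and 32.2 against 24.4 and 17.3. The lists share Ddc and Slc18a2, and the sums were not adjusted for differences between the libraries.

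Promoter peaks were found at all 9 genes in at least 1 library, while 34.9% of all protein-coding promoters had none in any library. The DA libraries had them at 7, 8 and 7 of the 9 genes, and the 5-HT libraries at 7 and 5, beside 59.7%, 63.6%, 61.9%, 58.0% and 49.5% of all protein-coding promoters. Since the libraries come from bulk samples, fewer open cells and less signal per cell cannot be told apart. Neurog2, Neurod1, Hes1 and Hes5 had a promoter peak in all 5 libraries, 4 of 9 genes beside 48.3% of all protein-coding promoters. None of the 9 had it in the 3 DA libraries alone, a pattern of 2.05% of all promoters. No promoter of the 9 was scored in both 5-HT libraries and in no DA library, a pattern of 0.0179% of all promoters. The promoters of Neurog1, Neurod2, Neurod4, Neurod6 and Atoh1 were scored in some libraries of either group or of the DA group only.

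**Figure D1:**
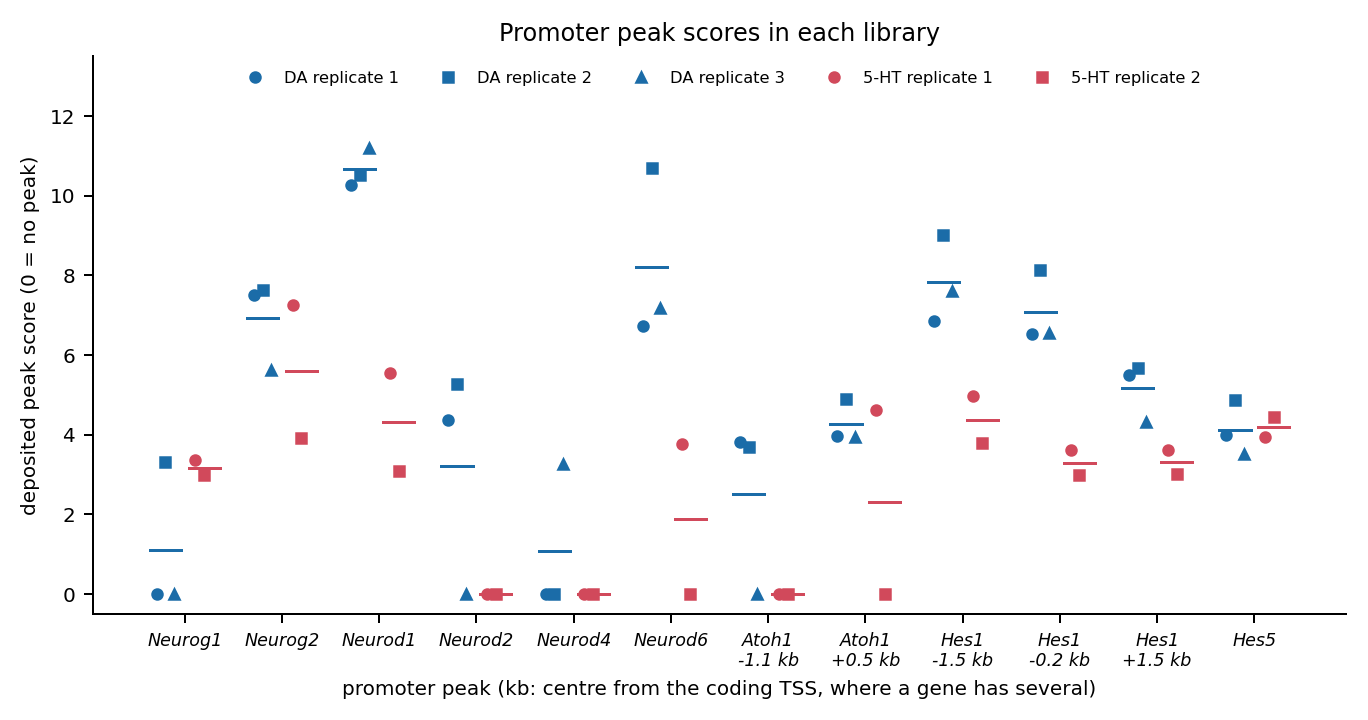
Deposited score (vertical axis, no unit, 0 where no peak was called) of each of the 12 promoter peaks in 3 DA libraries (blue) and 2 5-HT libraries (red), with horizontal lines at the group means and the distance of the peak centre from the coding TSS where a gene has several promoter peaks. The DA scores of Neurod1 lie between 10.3 and 11.2, above both 5-HT scores, and the groups overlap at Neurog2 and Hes5.

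Among the proneural genes, Neurog2 had the most widely open promoter. Its peak at chr3:127334441-127337954 (mm9) is 3514 bp wide, covers the TSS and most of the gene body, and was the widest of the 53. Its DA scores were 7.50, 7.64 and 5.64, and its 5-HT scores 7.27 and 3.93. The score of 5-HT replicate 1 lay within the DA range and that of 5-HT replicate 2 below it, so the groups overlapped. By place in the ranking, the order was the other way round. The promoter of Neurog2 stood at places 4390 and 9461 in the 5-HT libraries and at places 11717, 17598 and 25594 in the DA libraries. The percentile was 77.3 ± 4.14 (SD, n = 3) in DA and 73.7 ± 21.2 (SD, n = 2) in 5-HT neurons, with a two-sided exact permutation p of 0.8.

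Neurog1, which specifies cranial sensory neurons, was scored at its promoter (chr13:56352807-56353971) in DA replicate 2 alone among the DA libraries. The score there was 3.31, and the 5-HT libraries had 3.37 and 2.98. The lowest scores of these libraries were 3.04, 3.37 and 2.83, and the peak in 5-HT replicate 1 had exactly that lowest score. The groups overlapped, and the exact permutation p of the percentile was 0.8.

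The main promoter peak of Atoh1 (chr6:64678576-64680714) covers the TSS and most of the gene. Its DA scores were 3.97, 4.91 and 3.93, and it was scored at 4.63 in 5-HT replicate 1 and absent from 5-HT replicate 2. The 5-HT library with a peak lay inside the DA range, and the exact permutation p of the percentile was 0.6. A smaller promoter peak further upstream (chr6:64677827-64678287) was scored only in DA replicates 1 and 2, at 3.81 and 3.70. In the list for the rhombic lip and the cerebellar granule lineage, to which Atoh1 belongs by its known expression, Pax6 had a promoter peak in all 5 libraries, Barhl2 in the 3 DA libraries alone, Lhx9 and Zic1 in some libraries of both groups and Barhl1 in none. The scores of that list summed to 11.8, 15.1 and 14.9 in the DA libraries and 12.7 and 3.87 in the 5-HT libraries.

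Neurod1 and Neurod6, which act in differentiating neurons, had the highest mean DA promoter scores of the 9 genes. Neurod1 (chr2:79296464-79297442, covering its TSS) was scored at 10.3, 10.5 and 11.2 in the DA libraries and at 5.56 and 3.08 in the 5-HT libraries. Every DA score was above both 5-HT scores, and the DA libraries were close together, at 10.7 ± 0.472 (SD, n = 3), whereas the 5-HT libraries were at 4.32 ± 1.75 (SD, n = 2). The promoter stood at places 4406, 8023 and 4430 in the DA rankings and at places 10909 and 18952 in the 5-HT rankings. The groups did not overlap by score, percentile or place. The two-sided exact permutation p of the percentile was 0.1, the smallest that 3 against 2 libraries can give, so this test cannot pass 0.05. The annotation also places the start of a noncoding Cerkl transcript in this promoter, and the peak cannot be assigned to either gene alone.

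Neurod6 (chr6:55631033-55631558, covering its TSS) had DA scores of 6.73, 10.7 and 7.18, was scored at 3.77 in 5-HT replicate 1 and was absent from 5-HT replicate 2. The groups did not overlap, and the exact permutation p of the percentile was again 0.1. A peak downstream of the gene (chr6:55626315-55627621, centred 4.3 kb from the TSS) had the same set of libraries, with scores of 5.19, 7.46 and 6.99 for DA and 3.77 for the first 5-HT library. These were the only peaks in the Neurod6 window.

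The promoters of the other Neurod genes were scored in few libraries. Neurod2 (chr11:98190902-98191085) was scored at 4.37 and 5.27 in DA replicates 1 and 2 and had no peak in the other 3 libraries (exact permutation p of the percentile 0.4). Neurod4 (chr10:129717161-129717291) had a score of 3.26 in DA replicate 3 and no peak in the other 4 libraries (exact permutation p 1), and that peak lies just inside the gene without reaching the TSS. Both genes were nevertheless among those with many peaks in the window, as given below.

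The Notch effectors Hes1 and Hes5 had promoter peaks in all 5 libraries. At Hes1, 3 peaks overlap promoters of annotated transcripts. The upstream peak (chr16:30063014-30064810) holds the start of a noncoding transcript, the middle peak (chr16:30064915-30065517) holds the TSS of the protein-coding transcript, and the downstream peak (chr16:30066361-30067496) lies within the gene.

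The upstream peak of Hes1 had scores of 6.85, 9.02 and 7.62 in the DA libraries and 4.98 and 3.78 in the 5-HT libraries. The peak at the coding TSS had 6.53, 8.13 and 6.56 against 3.62 and 2.98, and the downstream peak 5.51, 5.67 and 4.33 against 3.62 and 3.02. At all 3 peaks each DA score was above both 5-HT scores. The places differed among the peaks. The coding TSS stood at places 16312, 15351 and 18839 in the DA libraries and at places 31515 and 20581 in the 5-HT libraries, so that every DA place was above both 5-HT places. The upstream peak stood at places 14644, 12078 and 13334 against 14668 and 10638, and the downstream peak at places 23119, 30792 and 40982 against 31463 and 19914, and at both the groups overlapped. The exact permutation p of the percentile was 0.1 for each of the 3 peaks.

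Hes5 showed no such difference. Its promoter (chr4:154334366-154335886, covering the TSS and the start of the gene) was scored at 3.99, 4.87 and 3.53 in the DA libraries and at 3.95 and 4.45 in the 5-HT libraries, which lay within the DA range. By place, both 5-HT libraries (26092 and 6478) stood above the DA libraries (40409, 39815 and 60876). The exact permutation p of the percentile was 0.6. An antisense noncoding transcript starts inside the same peak, and the promoter of Pank4 lies downstream of Hes5 in the same window.

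Higher DA scores were also seen at most other promoters. Among the 4 genes scored in all 5 libraries, Neurod1 and Hes1 (upstream peak) had every DA score above both 5-HT scores, as did 89.6% of the protein-coding promoters scored in all 5 libraries. Every DA place was above both 5-HT places at 1 of the 4 genes, Neurod1, beside 13.4% of those promoters. The reverse was seen at 2 of the 4, Neurog2 and Hes5, beside 22.3%. A peak scored in 5-HT replicate 2 cannot stand below place 22879 there, while the DA rankings are longer, so a weak promoter scored in all libraries tends to a higher place in the 5-HT libraries by construction. The place was chosen as a measure after the data were seen.

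In the DA libraries the promoter scores ran, from the highest mean, from Neurod1 (10.7 ± 0.472, SD, n = 3) through Neurod6 (8.21 ± 2.18), Hes1 (7.83 ± 1.10, upstream peak) and Neurog2 (6.93 ± 1.12) to Atoh1 (4.27 ± 0.552), Hes5 (4.13 ± 0.681), Neurod2 (3.21 ± 2.82), Neurog1 (1.10 ± 1.91) and Neurod4 (1.09 ± 1.88), with 0 where no peak was called. Neurod6, Hes1 and Neurog2 did not differ beyond their spread, nor did Atoh1, Hes5 and Neurod2. In the 5-HT libraries the order was Neurog2 (5.60 ± 2.36, SD, n = 2), Hes1 (4.38 ± 0.848), Neurod1 (4.32 ± 1.75), Hes5 (4.20 ± 0.359), Neurog1 (3.18 ± 0.272), Atoh1 (2.32 ± 3.27) and Neurod6 (1.89 ± 2.67), with Neurod2 and Neurod4 at 0. The values of Neurog2, Hes1, Neurod1 and Hes5 overlapped there.

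With only the top 22879 peaks of every library kept, as many as the smallest one has, Neurod1 and Hes1 kept a promoter peak in all 5 libraries, 2 of 9 genes beside 38.0% of protein-coding promoters. Neurod6 then had its promoter peak in the 3 DA libraries alone, 1 of 9 beside 0.487%. Neurog2 lost its peak in DA replicate 3 alone. Neurog1 and Hes5 kept a promoter peak in 5-HT replicate 2 only, Atoh1 in 5-HT replicate 1 only, and Neurod2 and Neurod4 in no library.

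The windows of the 9 genes differed in how many peaks they held. Neurog2 had 11, more than 98.8% of the 9848 protein-coding genes no longer than the longest of the 9, for which the median was 3. Neurod2 and Neurod4 had 8 each, Hes1 and Hes5 7 each, Atoh1 5, Neurod1 3, and Neurog1 and Neurod6 2 each. Of the 39 distal peaks, 34 were centred between genes.

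**Figure D2:**
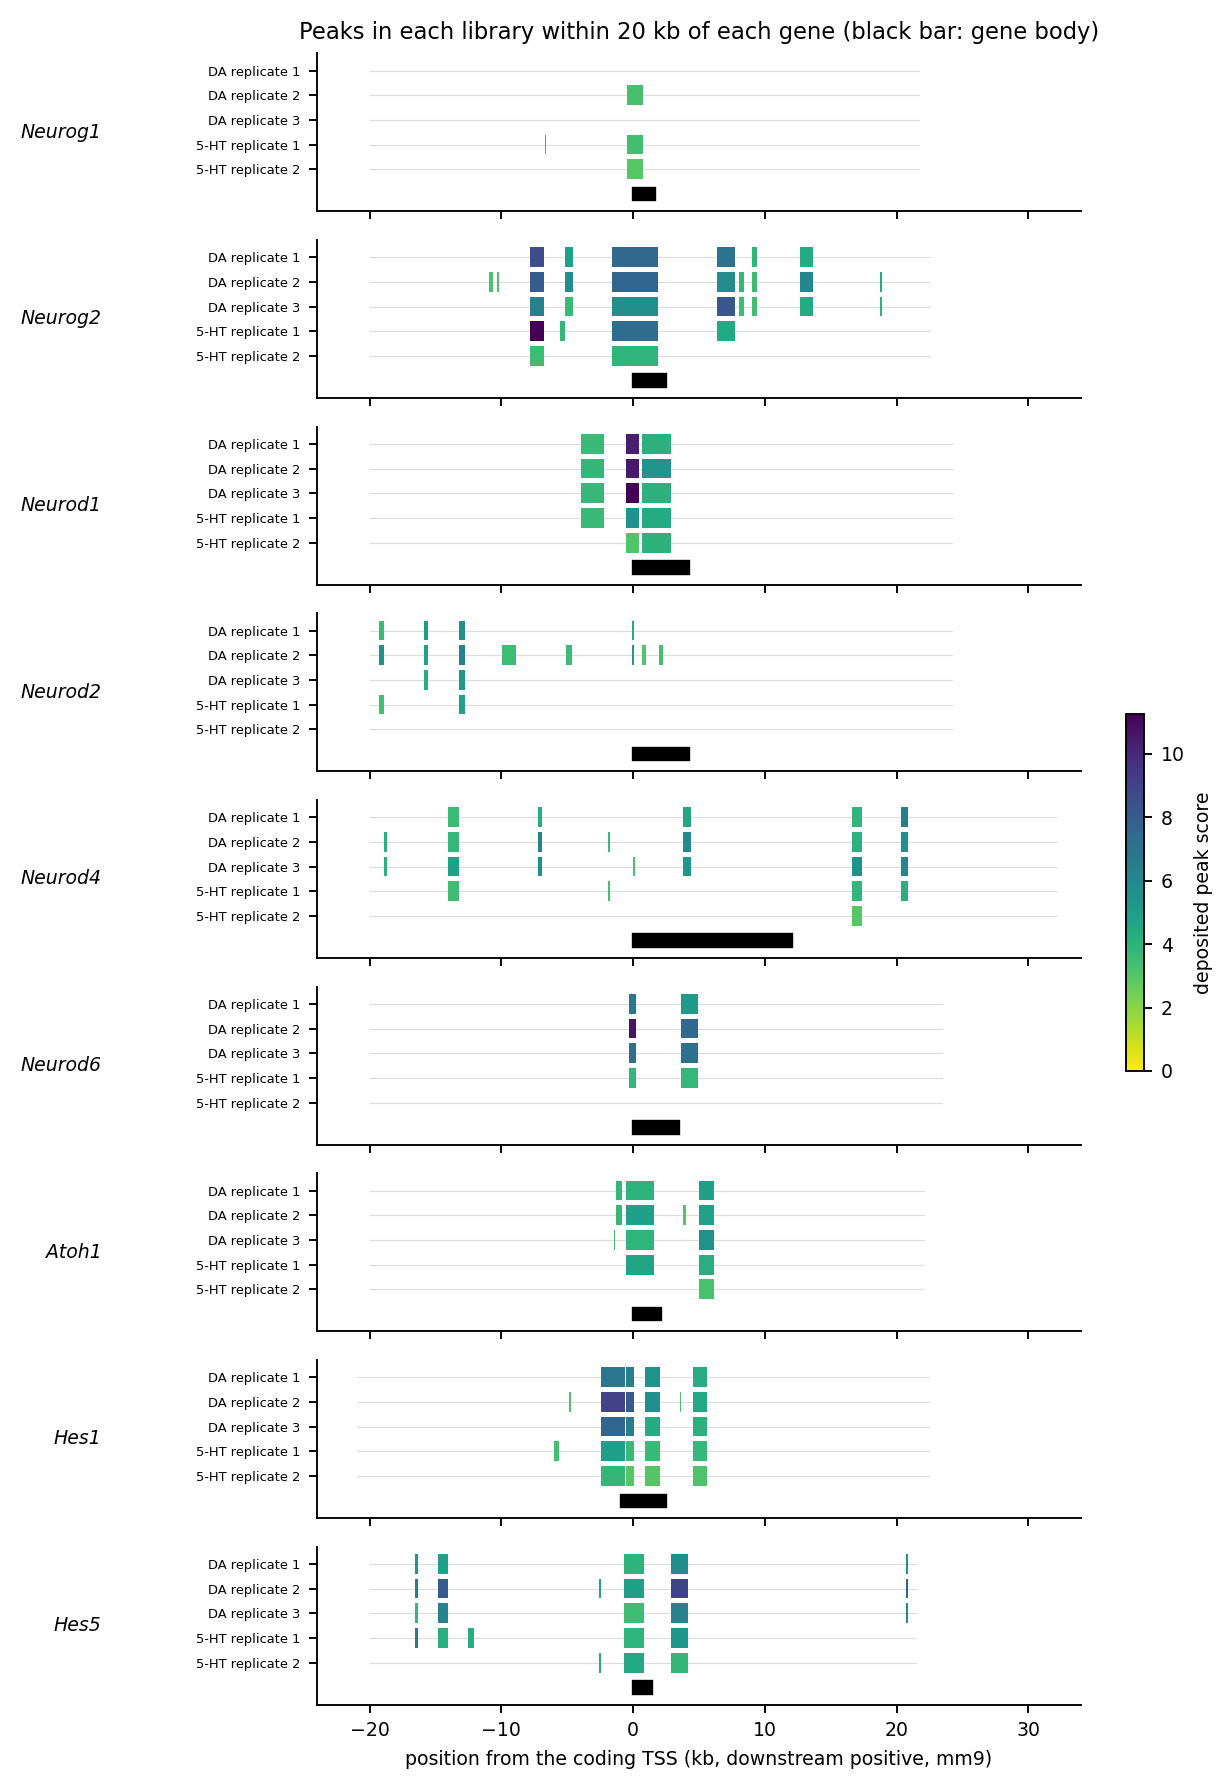
Peaks of each library (tracks within a panel) in the windows of the 9 genes, drawn to scale from the coding TSS with the direction of transcription to the right (horizontal axis, kb, mm9) and shaded by the deposited score. Neurog2 has 11 peak positions, and Neurod6 and Neurog1 have 2 each.

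The DA libraries were scored at 20, 34 and 23 of the 39 distal positions, and the 5-HT libraries at 18 and 5. These are 51.3%, 87.2%, 59.0%, 46.2% and 12.8% of the positions, beside 33.7%, 66.9%, 68.8%, 22.0% and 10.4% of all distal peaks. The share at the 39 was above that of all distal peaks in every library but DA replicate 3. Among the 39, 7 were in the 3 DA libraries alone (17.9%), beside 14.6% of all distal peaks, and 4 were in all 5 libraries (10.3%), beside 5.55%. None was in both 5-HT libraries alone, a pattern of 0.434% of all distal peaks. The remaining 28 had other sets of libraries, of which 9 were in DA replicate 2 alone and 8 were in every library but 5-HT replicate 2. The 7 peaks of the DA libraries lay at Neurog2 (3), Neurod4 (2), Neurod2 (1) and Hes5 (1).

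The 3 distal peaks of the DA libraries at Neurog2 lay on both sides of the gene. The highest by its lowest score (chr3:127348714-127349716, 13.2 kb downstream of the TSS) had scores of 4.31, 6.09 and 4.36. The one at Neurod4 chosen in the same way (chr10:129712918-129713548) lay in an intron of the gene, 4.1 kb from the TSS, with scores of 4.57, 5.80 and 5.27. At Neurod2 the peak was 15.7 kb upstream (chr11:98206535-98206830), with scores of 5.03, 4.79 and 4.24. The strongest of them was at the far end of the Hes5 window, where a peak of 121 bp (chr4:154355765-154355885), 20.8 kb downstream of the TSS and beyond Pank4, had scores of 5.79, 7.56 and 5.84. At these 4 positions neither 5-HT library had a peak.

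Among the 4 distal peaks in all 5 libraries, the one 7.3 kb upstream of Neurog2 (chr3:127328224-127329309) had the highest score of any peak in the 9 windows. Its scores were 8.60, 8.04 and 6.40 in the DA libraries and 11.2 and 3.56 in the 5-HT libraries. By score the 5-HT libraries lay on either side of the DA range. By place, 5-HT replicate 1 (411) stood above the DA libraries (8000, 15757 and 19888) and 5-HT replicate 2 (12745) among them, and the exact permutation p of the percentile was 0.7. The group difference at this peak was smaller than the spread within the 5-HT group.

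The other distal peaks in all 5 libraries had lower scores. A peak 5.6 kb downstream of the TSS of Atoh1 (chr6:64684141-64685261) had 4.83, 4.78 and 5.62 in the DA libraries and 4.21 and 3.27 in the 5-HT libraries. A peak 5.1 kb downstream of that of Hes1 (chr16:30069996-30071027) had 4.24, 4.49 and 4.06 against 3.70 and 3.13, and a peak 17.0 kb downstream of that of Neurod4 (chr10:129699947-129700686) had 3.88, 4.01 and 5.49 against 3.83 and 2.95. The DA scores were above the 5-HT scores at all 3. The share of this pattern over all distal peaks was not counted, and the 89.6% given above is for promoters. By place, both 5-HT libraries stood above the DA libraries at the peaks of Atoh1 and Hes1, 2 of the 4 positions, beside 40.0% of all distal peaks in all 5 libraries.

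At 22879 peaks per library, 1 of the 39 distal peaks was in all 5 libraries, the one upstream of Neurog2, beside 2.72% of all distal peaks. The DA libraries without the 5-HT libraries had 0 beside 2.33%, and both 5-HT libraries without a DA library had 1, the peak downstream of Atoh1, beside 1.51%. The 7 distal peaks of the DA libraries thus did not stay in all 3 of them at this number of peaks. The Hes5 peak stayed in DA replicates 1 and 2.

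Score differences between the groups were tested with limma on the 16856 peaks scored in all 5 libraries, with log2 scores quantile normalised. The windows of the 9 genes hold 12 of these peaks. None passed an adjusted p of 0.05, beside 0.368% of all tested peaks called higher in DA and 0.682% called higher in 5-HT neurons (62 and 115 peaks). At an unadjusted p under 0.05 there were 5 of the 12, beside 17.5% of all tested peaks. The median log2 difference, DA minus 5-HT, was -0.08 over the 12 and 0.01 over all tested peaks.

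The peak at the coding TSS of Hes1 had a log2 difference of 0.60 (SE 0.150, 95% interval 0.27 to 0.93, limma adjusted p = 0.0798), and that at the promoter of Neurod1 0.66 (SE 0.199, 0.22 to 1.10, limma adjusted p = 0.131). At both peaks every DA raw score was above both 5-HT scores. The promoter of Hes5 had a difference of -0.58 (SE 0.235, -1.10 to -0.06, limma adjusted p = 0.237), and that of Neurog2 -0.43 (SE 0.193, -0.86 to -0.00, limma adjusted p = 0.280). The upstream peak of Hes1 was at 0.08 (-0.25 to 0.41), so the adjacent peaks of this gene gave different values. Inside Neurod1, a peak at its coding exon that also holds the start of the noncoding gene Gm17325 (chr2:79294026-79296200) was at -0.50 (-0.91 to -0.09, limma adjusted p = 0.196), the opposite sign to the promoter peak next to it. The upstream Neurog2 peak was at -0.58 (-1.33 to 0.16), the downstream promoter peak of Hes1 at 0.21 (-0.15 to 0.58) and the Pank4 promoter at -0.12 (-0.48 to 0.23). The distal peaks downstream of Neurod4, Atoh1 and Hes1 were at 0.03, -0.08 and -0.08, and the intervals of all 6 included 0.

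**Figure D3:**
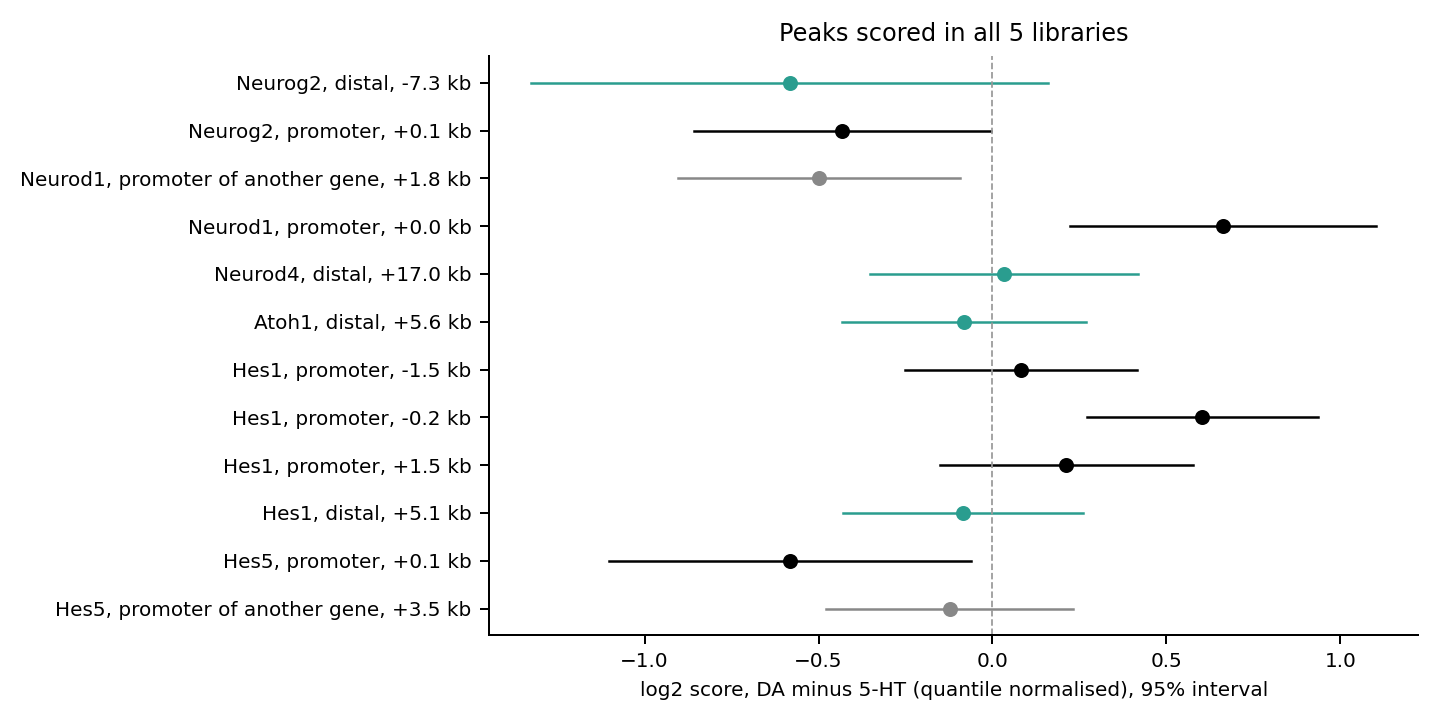
Difference in log2 score between DA and 5-HT libraries (horizontal axis, quantile normalised, positive where DA is higher) with 95% intervals from limma for the 12 peaks scored in all 5 libraries, by gene and distance of the peak centre from the coding TSS, with promoters of the 9 genes in black, promoters of neighbouring genes in grey and distal peaks in green. The coding TSS of Hes1 and the promoter of Neurod1 are at 0.60 and 0.66, and none of the 12 passed an adjusted p of 0.05.

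Leaving out any library moved the calls over all peaks, and leaving out either 5-HT library also moved those in the 9 windows. Without DA replicate 1 or DA replicate 2 none of the tested peaks was called. Without DA replicate 3 only 2 were called, both higher in 5-HT neurons. Without 5-HT replicate 1, limma called 4 of the 12 peaks, beside 15.2% of all tested peaks. They were the Neurod1 promoter at 1.02, the Hes1 coding TSS at 0.60, the Hes5 promoter at -1.08 and the peak inside Neurod1 at -0.79 (limma adjusted p 0.00589, 0.0368, 0.00440 and 0.0138). Without 5-HT replicate 2, which brings 22 peaks of the 9 windows into the fit, limma called 4 of them, beside 7.68% of all tested peaks. They were the Neurog2 upstream peak at -1.31, the Hes5 peak 16.4 kb upstream at -0.94, the Hes1 coding TSS at 0.69 and the Neurod6 promoter at 0.77 (limma adjusted p 0.00556, 0.0275, 0.0353 and 0.0365). Each time the lone 5-HT library was assumed to vary like the others.

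Most of these values rested on which 5-HT library was kept. The Neurog2 upstream peak was at 0.15 without 5-HT replicate 1, the opposite sign. Without 5-HT replicate 2 the Neurod1 promoter was at 0.38, the Hes5 promoter at -0.22 and the peak inside Neurod1 at -0.33 (limma adjusted p 0.239, 0.517 and 0.302). The Neurod6 promoter and the far upstream Hes5 peak had no score in 5-HT replicate 2, and among the fits that need a score in every library they entered only the one without it. The Hes1 coding TSS was at 0.60 and 0.69 in these fits, but at 0.30 with median centring (limma adjusted p 0.267).

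Other settings gave other calls. With median centring in place of quantile normalisation, the Hes5 promoter and the peak inside Neurod1 passed, both lower in DA, 2 of 12 beside 10.2% of all tested peaks. That setting shifts the balance of all calls from 62 higher and 115 lower in DA to 416 and 1298. With peaks scored in at least 3 libraries, the Neurod1 promoter and the Hes1 coding TSS passed, both higher in DA, 2 of 24 beside 5.77%, in a fit that called 1738 peaks higher and 180 lower in DA. The Neurod6 promoter and the far upstream Hes5 peak were among the 24 and did not pass there.

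The genes whose promoter percentiles over the 5 libraries lay nearest to those of the 9 were, by Euclidean distance in percentile points, Dclre1b for Hes1 (3.61), Daglb for Neurog2 (3.82), A730013G03Rik for Neurod1 (4.07), Gm10530 for Atoh1 (5.71), Mrps10 for Neurod6 (6.59), Bcas1 for Neurog1 (7.002) and Adamtsl3 for Hes5 (18.3). Neurod2 and Neurod4, in fewer than 3 libraries, were not compared. The distance was largest for Hes5, with a percentile of 71.7 in 5-HT replicate 2 and of 23.6 to 57.2 in the other 4 libraries.

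Related genes were counted in the same way. Among all protein-coding promoters, 48.3% had a peak in all 5 libraries and 2.05% in the DA libraries alone. Of 19 other bHLH genes, of neural and other tissues, 7 had a promoter peak in all 5 libraries, and Nhlh1 and Nhlh2, which are expressed in young neurons, had it in the 3 DA libraries alone (Nhlh1 4.11, 4.56 and 4.47, Nhlh2 5.66, 6.35 and 5.93). Of 7 genes for E proteins and Id inhibitors, the partners and antagonists of proneural proteins, 6 were in all 5 libraries. Of 8 other Hes and Hey genes, 3 were in all 5 and Heyl in the DA libraries alone (3.60, 4.18 and 4.34). Of 20 genes of the Notch pathway, 12 were in all 5 and Mfng, a glycosyltransferase that modifies Notch, in the DA libraries alone (3.73, 6.20 and 3.65).

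Markers of other cells were scored beside these, among them cells that sorting for GFP or YFP was meant to remove and, for the dorsal telencephalon, a region outside both dissections. All 5 libraries had promoter peaks at 4 of 5 markers of radial glia and progenitors, in which Hes genes are known to be active, with summed scores of 27.3, 26.7 and 27.9 against 24.4 and 13.7, highest at Vim. Among markers of the dorsal telencephalon, a region where Neurog2, Neurod2 and Neurod6 are expressed, Emx1 and Tbr1 had promoter peaks in the DA libraries alone, with summed scores of 7.67, 7.47 and 8.19 against 0 and 0, highest at Emx1. Of 3 GABAergic markers, Gad1 and Gad2 had promoter peaks in all 5 libraries and Slc32a1 in the DA libraries alone (5.07, 4.76 and 3.92), with summed scores of 14.9, 13.9 and 12.9 against 9.57 and 6.60. Of 3 glutamatergic markers, Slc17a6 had DA scores of 9.97, 12.9 and 12.8, each above that of Th, and 3.65 in 5-HT replicate 1, Slc17a8 was in 3 libraries and Slc17a7 in none. The glutamatergic scores summed to 9.97, 17.1 and 16.9 against 7.02 and 0. The astrocyte marker Gfap (6.91, 8.76 and 7.34 in DA, 6.92 in 5-HT replicate 1) and the endothelial markers Kdr and Cldn5 were in every library but 5-HT replicate 2, which had the fewest peaks. The astrocyte list (2 genes) summed to 6.91, 12.6 and 10.8 against 6.92 and 0, and the endothelial list (3 genes, Pecam1 in no library) to 9.09, 9.10 and 9.50 against 8.52 and 0. Of 3 markers of the oligodendrocyte lineage, Pdgfra was in all 5 libraries, Olig2 in 4 and Sox10 in none, with sums of 5.33, 10.1 and 10.1 against 9.66 and 8.03. The noradrenergic (3) and pericyte (2) lists had peaks in DA replicates 2 and 3 only, with Dbh in none, and the 3 microglial markers had none in any library. A peak in a pool does not tell which cells carry it, so these peaks, that of Slc17a6 included, may come from the sorted neurons themselves. The part of other cells in the scores of the 9 genes was not tested.

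Sequence words were searched on both strands of the promoters from the mm9 genome, namely the E-box CANNTG bound by bHLH dimers with its forms CAGATG (or CATCTG) and CAGCTG, the N-box CACNAG and the class C site CACGCG bound by Hes proteins, and the RBPJ core TGGGAA. From 1 kb upstream to 100 bp downstream of the coding TSS, all 9 promoters hold an E-box, as do 99.0% of protein-coding promoters, and all 9 hold the RBPJ core, beside 65.6%. CAGATG is in 5 of the 9 beside 50.3%, CAGCTG in 4 beside 40.3%, the N-box in 8 beside 85.8% and CACGCG in 7 beside 20.0%. Neurod4 and Neurod6 lack CACGCG in this stretch. The ratio of observed to expected CpG was 0.206 at Neurod6, 0.224 at Neurod4 and 0.360 at Neurod2, below the median of 0.406 over all promoters, and between 0.492 and 0.749 at the other 6 genes. The 3 genes with low CpG are among those without a promoter peak in all 5 libraries.

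The promoters with the highest DA scores and those of the Notch effectors are shown from 250 bases before to 29 after the coding TSS, on the strand of the gene, because the score differences between the groups and between Hes1 and Hes5 were seen there. Capitals mark every match to the words above. They lie at chr2:79296879-79297158 (minus strand), chr6:55631228-55631507 (minus strand), chr16:30065176-30065455 (plus strand) and chr4:154334782-154335061 (plus strand) of mm9.
Neurod1 promoter: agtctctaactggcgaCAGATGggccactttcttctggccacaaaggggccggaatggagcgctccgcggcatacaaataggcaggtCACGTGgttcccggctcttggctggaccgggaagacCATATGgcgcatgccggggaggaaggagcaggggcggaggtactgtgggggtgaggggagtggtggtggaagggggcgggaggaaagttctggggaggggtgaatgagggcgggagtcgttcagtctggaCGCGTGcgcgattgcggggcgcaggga
Neurod6 promoter: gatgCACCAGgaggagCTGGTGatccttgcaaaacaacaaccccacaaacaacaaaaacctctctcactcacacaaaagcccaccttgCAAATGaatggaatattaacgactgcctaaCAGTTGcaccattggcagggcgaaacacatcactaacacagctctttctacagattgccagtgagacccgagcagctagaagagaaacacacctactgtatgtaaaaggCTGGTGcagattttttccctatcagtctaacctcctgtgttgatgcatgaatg
Hes1 promoter: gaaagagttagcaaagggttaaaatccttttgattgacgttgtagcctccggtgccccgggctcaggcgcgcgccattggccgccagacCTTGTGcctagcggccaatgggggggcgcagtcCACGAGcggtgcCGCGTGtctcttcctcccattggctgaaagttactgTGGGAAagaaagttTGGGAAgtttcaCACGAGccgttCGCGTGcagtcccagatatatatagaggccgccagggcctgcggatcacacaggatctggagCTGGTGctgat
Hes5 promoter: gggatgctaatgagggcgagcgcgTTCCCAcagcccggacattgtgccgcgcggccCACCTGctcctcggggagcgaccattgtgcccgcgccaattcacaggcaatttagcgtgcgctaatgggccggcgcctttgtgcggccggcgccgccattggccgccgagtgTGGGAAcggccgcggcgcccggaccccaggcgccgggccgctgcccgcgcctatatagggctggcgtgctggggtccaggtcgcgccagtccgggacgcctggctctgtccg

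In these 280 bases Hes1 has 4 N-boxes, 2 class C sites and 2 RBPJ cores, and no E-box. The RBPJ cores begin 80 and 66 bases upstream of the TSS, between N-boxes that begin 128 and 54 bases upstream. Hes5 has RBPJ cores 226 and 82 bases upstream, on opposite strands, with an E-box 194 bases upstream and no N-box. Neurod1 has 3 E-boxes, with CAGATG 234, CACGTG 163 and CATATG 127 bases upstream, and Neurod6 has E-boxes 162 and 132 bases upstream and 3 N-boxes. Windows of this length around the TSS of all protein-coding genes hold an E-box in 67.3%, an N-box in 39.4%, CACGCG in 11.0% and the RBPJ core in 23.1%. A match is a description of letters and not a bound site.

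The centres of distal peaks were searched in the same way. In the central 200 bp, 26 of the 39 hold an E-box beside 73.1% of all distal peaks, 12 hold CAGATG beside 21.0%, 8 hold CAGCTG beside 19.6%, 10 an N-box beside 37.2%, 1 CACGCG beside 1.35% and 10 the RBPJ core beside 19.7%. Their median GC content was 55.0% beside 48.0% over all distal peaks.

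The centres of the distal peaks named above are shown for the position shared by all libraries upstream of Neurog2, the one downstream of Atoh1, a gene known to be controlled by a downstream enhancer, and those of the DA libraries at Neurod2, Neurod4 and Hes5. They are on the plus strand of mm9, at chr3:127328666-127328865, chr6:64684601-64684800, chr11:98206582-98206781, chr10:129713133-129713332 and chr4:154355725-154355924, with the same words in capitals.
Neurog2 upstream peak: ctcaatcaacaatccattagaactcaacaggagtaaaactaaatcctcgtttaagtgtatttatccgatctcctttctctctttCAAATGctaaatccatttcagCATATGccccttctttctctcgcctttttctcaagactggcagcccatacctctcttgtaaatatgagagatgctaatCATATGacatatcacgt
Atoh1 downstream peak: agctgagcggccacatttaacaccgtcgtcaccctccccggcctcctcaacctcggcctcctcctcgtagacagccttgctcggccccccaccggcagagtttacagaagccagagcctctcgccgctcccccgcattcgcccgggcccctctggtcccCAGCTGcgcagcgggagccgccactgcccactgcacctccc
Neurod2 upstream peak: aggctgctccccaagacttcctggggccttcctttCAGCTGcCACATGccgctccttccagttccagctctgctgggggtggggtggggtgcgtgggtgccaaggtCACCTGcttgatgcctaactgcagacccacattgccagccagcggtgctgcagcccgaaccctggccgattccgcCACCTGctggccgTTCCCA
Neurod4 intron peak: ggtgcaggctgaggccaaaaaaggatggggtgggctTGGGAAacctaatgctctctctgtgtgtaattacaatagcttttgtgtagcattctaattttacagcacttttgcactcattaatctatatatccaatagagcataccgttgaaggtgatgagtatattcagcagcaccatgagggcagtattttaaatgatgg
Hes5 far downstream peak: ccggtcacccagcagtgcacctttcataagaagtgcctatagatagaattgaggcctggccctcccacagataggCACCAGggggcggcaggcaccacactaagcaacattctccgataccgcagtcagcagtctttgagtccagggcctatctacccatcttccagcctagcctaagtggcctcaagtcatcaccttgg

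The centre of the Neurog2 upstream peak holds 3 E-boxes, a CAAATG and CATATG at the other positions, and none of the other words. That of Atoh1 holds a CAGCTG, which is its sole match. The Neurod2 peak holds 4 E-boxes, of which 1 is CAGCTG, and an RBPJ core. The intron peak of Neurod4 holds an RBPJ core and no E-box, and the Hes5 peak, whose window runs past its 121 bp on both sides, holds an N-box and no E-box.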

How the data were processed

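ATAC-seq was measured in 3 DA and 2 5-HT libraries of E14.5 embryos, grouped by their labels. The submitters' processing notes name Trimmomatic, FastQC, Bowtie2, Picard, MACS2 and HOMER and the build mm9, and their versions and the peak threshold are not given in the sources used here. The authors merged the peaks of all libraries and deposited, library by library, a score at 131942 shared positions, where 0 is no peak and larger values have no stated unit. The other numeric columns of the files hold -1. In 1 line a misspelled chromosome name was corrected.

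Peaks were assigned by an overlap of at least 1 bp to promoters and windows of the GENCODE annotation for mm9 (release vM1). Where several peaks overlapped a promoter, the one in the most libraries and then with the highest lowest score stood for the gene. Presence was counted, percentiles of single genes were compared by two-sided exact permutation tests over the 10 divisions of the libraries, and log2 scores were fitted with limma 3.58.1 over all peaks scored in all 5 libraries, with Benjamini-Hochberg adjustment and a threshold of 0.05. R 4.3.3, Python 3.11.15, NumPy 2.4.6, pandas 2.3.3, SciPy 1.17.1 and matplotlib 3.10.9 were used, and the computations were tested on simulated data. Named peaks were all promoter peaks of the 9 genes and, in each window, the distal peak with the highest lowest DA score among those of the DA libraries alone and among those in all libraries. Other distal peaks and those of neighbouring promoters were named after their values were seen. Of related genes, those with promoter peaks in the DA or the 5-HT libraries alone were named, and some values of the lists are not reported here. The members and lists were chosen with earlier results of these data known. Alternatives were the number of peaks, promoter and window sizes, merging, peak centres, a stricter score, other normalisation, a replicate block and leaving out each library. The RNA-seq samples of the series came without processed files and were left out. Read depth is not given, so its precision is unknown.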

Additional observations from a re-analysis of the deposited data

How the results depend on the processing

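With 22879 peaks per library, 2 of the 9 genes in place of 4 had a promoter peak in all libraries and 1 in place of 0 in the DA libraries alone, and the windows held 23 positions in place of 53, with 4 in all libraries in place of 12, 1 in the DA libraries alone in place of 7 and 2 in the 5-HT libraries alone in place of 0. Windows of 10 kb held 4 positions of the DA libraries alone, and those of 50 kb held 99 positions, 19 of them in the DA libraries alone. With scores above the median of each library, 31 positions were left and 3 were in all libraries. Leaving out each library in turn gave 0 to 2 promoters and 7 to 17 positions in the DA libraries alone, 12 to 22 positions in all libraries and 0 to 4 in the 5-HT libraries alone, with the highest counts on leaving out a 5-HT library. The other promoter and window counts stayed within 1.5 times under larger promoters, merged peaks and peak centres. For limma, the number of peaks of the 9 genes past the threshold was 0, 2 with median centring (24.3% of all calls higher in DA, beside 35.0% with quantile normalisation), 2 of 24 with scores in at least 3 libraries and 0 as missing (90.6% of all calls higher in DA), and 0 to 4 without each library. That fit with missing scores moved the median over all peaks to 0.18, from 0.01. With the replicate number as a block the count was 0, with 0 peaks of the whole table called higher in DA and 2 called higher in 5-HT neurons. The labels give same-numbered libraries a shared number and no stated batch. The deviations of same-numbered libraries correlated at -0.00860 and 0.0261. The deviations of the 2 5-HT libraries mirror each other, so these values cannot decide whether same-numbered libraries share a batch. Some log2 differences changed sign. Neurod4 (17.0 kb downstream) went to -0.41 with median centring, -0.10 with the block, -0.0868 without DA replicate 3 and -0.05 without 5-HT replicate 2. With median centring the downstream promoter peak of Hes1 went to -0.17 and its coding TSS from 0.60 to 0.30. With scores in at least 3 libraries the peaks downstream of Atoh1 and Hes1 went to 0.15 and 0.10 and the Pank4 promoter to 0.16, and without 5-HT replicate 1 the Neurog2 upstream peak went to 0.15, against -1.31 without 5-HT replicate 2. None of these values with a changed sign passed the threshold, and the cause was not tested. Of the percentile differences of single genes under an alternative, 14 moved by more than the pooled SD between replicates or, for raw score and place, changed sign. The percentile difference of Hes1 was 63.2 in place of 23.9 when the peak at the coding TSS was taken, an alternative chosen after seeing the data, as was the place. With 22879 peaks it was -3.05, that of Neurog2 -45.8 in place of 3.60, that of Atoh1 -11.0 in place of 15.96, that of Neurod6 44.3 in place of 69.5 and that of Hes5 -35.8 in place of -13.4. Without 5-HT replicate 2, Neurog2 was at -11.4, Atoh1 at -11.1, Hes5 at 6.04 and Neurog1 at 0.624 in place of -2.18. Neurod1 was at 20.9 or 75.6 in place of 48.3 without a 5-HT library, and without 5-HT replicate 1 Neurog2 was at 18.6, Atoh1 at 43.0 and Hes5 at -32.9. Neurog1 was at 0.474 with the block and without DA replicate 1 or 3. Groups of 3 and 2 libraries with no read depth limit what can be seen. An absent peak is not closed chromatin, and cell mixture and chromatin state cannot be told apart in sorted pools. Library yield, the number of sorted cells and cell type cannot be told apart. Both 5-HT libraries had the fewest peaks and came from fewer cells than the DA libraries.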
